A study of Mus musculus with 6 samples.

Results

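The genes described here are 34 that carry out or answer the integrated stress response and supply amino acids: ATF4 pathway factors and their targets, enzymes of amino acid and one-carbon metabolism, amino acid transporters and tRNA synthetases. They were chosen by symbol for their known roles, with earlier results of these data known. All 34 were rows of the deposited count table of 55291 genes. Of these, 32 passed the filter on low counts and were among the 16480 genes tested. Slc7a11 and Nupr1 did not pass it and are described by their counts.

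The RNA came from natural killer (NK) cells sorted from mouse spleens at steady state. Cells positive for CD49b and negative for CD3e were taken, and each library came from a different mouse. The 3 WT libraries (WT 1, 2 and 3) came from mice with unchanged heat shock factor 1 (HSF1), and the 3 S303/7A libraries (5, 6 and 7) from mice in which serines 303 and 307 of HSF1 are alanines. The series text calls these mice HSF1-enhanced. The labels give no age, sex, strain or batch, and do not say that the change is limited to NK cells, so effects that reach NK cells through other tissues cannot be told apart from effects within them.

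In the integrated stress response, kinases that sense amino acid shortage, unfolded protein, double-stranded RNA or heme lack phosphorylate the translation factor eIF2. General translation then drops, while the mRNA of the transcription factor ATF4 is translated more. ATF4 turns on genes for amino acid synthesis, uptake and tRNA charging, and with CHOP, its partner encoded by Ddit3, it can turn on genes of cell death. Because ATF4 is controlled largely at translation, the level of its mRNA is not a measure of its activity, and the transcripts of its targets are the usual readout.

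ATF4 and C/EBP proteins bind a composite element, TGATGNAA. It was searched on both strands in the RefSeq promoter windows (GRCm38.p6, 250 bases before to 50 after the annotated start), where 29 of the 34 genes had at least 1 window. It was found for 9 of the 29 (31.0%), against 4.51% of the 27025 genes in the table. Since the genes were listed as pathway genes, this share describes the list. The stretches below, for 8 of the 9, are shown because these genes fell into a group of scarce transcripts and a group of abundant transcripts. The element is in capitals in either orientation, each stretch reads 5′ to 3′ on the gene's strand, and the match nearest to the upstream end is given where there were 2.
Chac1, chr2:119351038-119351067, + strand: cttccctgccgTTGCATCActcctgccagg
Slc7a11, chr3:50443661-50443690, - strand: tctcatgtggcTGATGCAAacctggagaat
Asns, chr6:7693214-7693243, - strand: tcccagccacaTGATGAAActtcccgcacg
Nupr1, chr7:126625562-126625591, - strand: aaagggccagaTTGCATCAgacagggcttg
Vldlr, chr19:27216809-27216838, + strand: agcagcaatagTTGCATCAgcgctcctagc
Trib3, chr2:152344028-152344057, - strand: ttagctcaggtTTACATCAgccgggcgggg
Got1, chr19:43524689-43524718, - strand: cattgcattggTTGCATCAtacaagcctcc
Gars, chr6:55037960-55037989, + strand: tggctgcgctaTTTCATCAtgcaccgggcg

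The element begins 193 bases before the start for Chac1, 66 for Slc7a11, 23 for Asns, 110 for Nupr1, 200 for Vldlr, 102 for Got1 and 30 for Gars. In Trib3 it begins at base 15 after the start. CPM are counts scaled by library size and TMM factors, and levels of different genes are compared per kilobase of annotated exon. The first 6 of these genes, Chac1 to Trib3, had mean levels of 0.00925 to 0.366 CPM per kb over the 6 libraries. The other 3 were at 10.2 to 49.7 CPM per kb, with Gars the highest. Of the 20 genes with a window but no match, Cebpb and Atf5 were under 1 CPM per kb, and the medians were 0.279 CPM per kb with and 12.3 CPM per kb without the element. A heat shock element of 3 units (GAA, any 2 bases, TTC, any 2 bases, GAA, or its reverse complement) was found in 0 of the 29, against 0.66% of all genes. At so low a share, 0 matches among 29 genes were likely beforehand, so the count does not set these genes apart. Matches of either element are letters in 1 window and say nothing of binding. A gene without a match may hold the element outside its window.

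**Figure D1:**
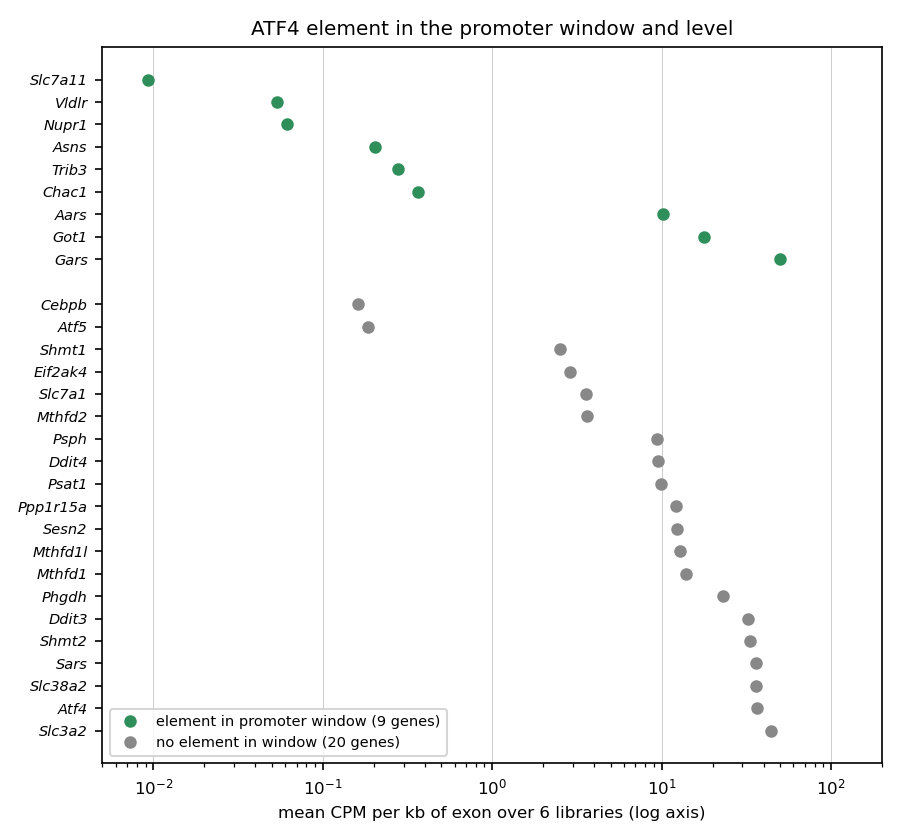
Mean level (CPM per kb of exon over 6 libraries, log axis) of the 29 genes with a promoter window, by presence of the ATF4 element TGATGNAA in that window. Of the 9 with the element, 6 lie under 1 CPM per kb and 3 between 10.2 and 49.7, while 18 of the 20 without it lie between 2.50 and 44.3.

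The libraries held 53845572 to 72736406 counts in WT and 43189163 to 47248039 in S303/7A, so WT was sequenced more deeply. The 12 NK markers summed to between 23070 and 28090 CPM in WT and between 24220 and 26110 in S303/7A. Marker sums of other cells were small beside them, and the ranges of several lay wholly lower in S303/7A: basophils and mast cells (450.7 to 899 CPM in WT, 277 to 379 in S303/7A), platelets (415 to 453 and 215 to 286), neutrophils (51.6 to 89.0 and 32.8 to 39.2) and erythroid cells (34.7 to 37.7 and 17.0 to 20.9). Of the tested markers, 9 of 9 for basophils and mast cells, 13 of 13 for platelets, 4 of 6 for neutrophils and 6 of 9 for erythroid cells had log2 folds below 0. The sum for dendritic cells was also lower (558 to 757 and 296 to 496 CPM) but was mostly Itgax, 542 to 727 and 263 to 464 CPM, and only 3 of its 7 tested markers were below 0 (median log2 fold 0.18). T cell, B cell and monocyte sums overlapped. Of their tested markers, 3 of 12, 4 of 11 and 7 of 10 were below 0 (median log2 folds 0.28, 0.08 and -0.34). No marker of any list was at 0 in all libraries. The part of these cells in the values below was not tested. In bulk RNA, fewer cells of a type and less RNA per cell cannot be told apart.

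None of the 32 tested genes passed a Benjamini-Hochberg threshold of 0.05 by edgeR quasi-likelihood, where 0.364% of all genes tested passed. DESeq2 and limma-voom also called 0 of them, and 2.15% and 0.231% of all genes they tested. Phgdh, Got1 and Sesn2 had an unadjusted p under 0.05, 3 of 32 or 9.38%, and the share over all genes was 9.68%. The same 3 genes were the ones whose libraries did not overlap between the genotypes, 9.38% against 16.0% of all genes. The smallest adjusted p was 0.371, for Phgdh.

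The log2 fold (S303/7A over WT) had a median of 0.04 for the 32 genes and 0.01 for all genes tested, and 18 of the 32 were above 0. Precision depended on level. Among the 24 genes at 10 CPM or more, the 95% interval of the fold lay wholly within 1.5-fold in either direction for 21, and the exceptions were Ddit4, Ppp1r15a and Mthfd2. That was 87.5%, against 74.9% of all genes at this level. Of the 8 genes under 10 CPM, only Shmt1 had such an interval, and those of the other 7 reached past 2-fold.

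**Figure D2:**
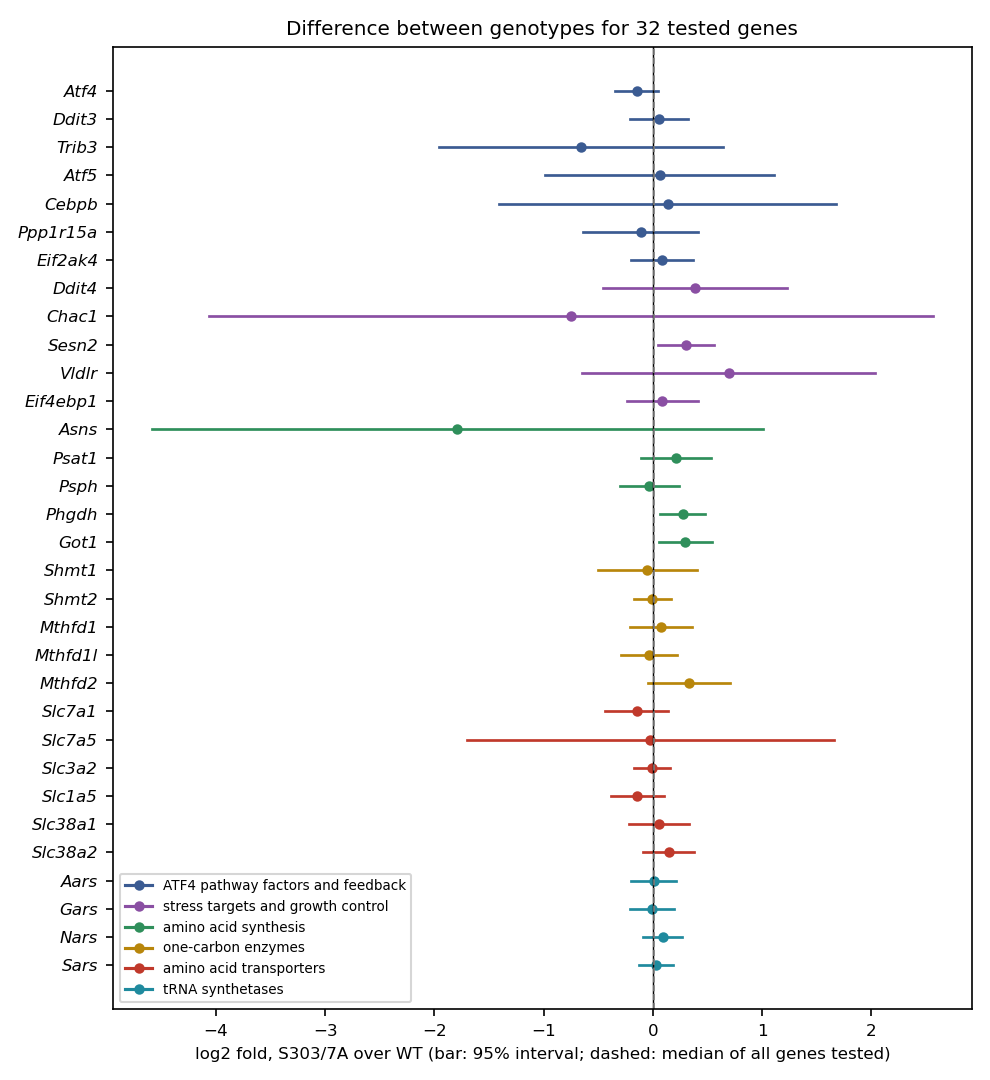
Log2 fold of S303/7A over WT for the 32 tested genes, with 95% intervals from the quasi-likelihood fit, coloured by role. Intervals of abundant genes are narrow around 0, those of Phgdh, Got1 and Sesn2 lie just above 0, and those of Asns, Chac1, Trib3, Cebpb, Vldlr, Atf5 and Slc7a5 are wide.

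Atf4 mRNA (chromosome 15, 80255184 to 80257541, GRCm38) was abundant. It was measured at 91.98, 86.2 and 94.7 CPM in WT 1, 2 and 3 and at 81.5, 76.7 and 87.8 CPM in S303/7A 5, 6 and 7. The groups overlapped only between S303/7A 7 and WT 2, and the log2 fold was -0.15 ± 0.08 (SE; edgeR quasi-likelihood, adjusted p 0.655). With library totals in place of TMM factors the groups did not overlap and the gene was still not called. Per kilobase of annotated exon its level was 36.7 CPM per kb, above 90.5% of the genes tested.

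Ddit3, which encodes CHOP, was at 51.0, 56.4 and 55.7 CPM in WT and at 52.7, 52.1 and 65.0 in S303/7A, with S303/7A 7 the highest library. Its log2 fold was 0.06, with a 95% interval from -0.21 to 0.33. Its transcript was thus present at steady state in both genotypes. Ddit3 overlaps exons of Mars on the other strand, and the counting strand is not given in the sources used here.

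Trib3, a pseudokinase that CHOP and ATF4 turn on and that feeds back on ATF4, was scarce but detected in every library. It had 69, 30 and 39 counts in WT and 27, 22 and 11 in S303/7A, or 0.531 to 1.09 and 0.236 to 0.630 CPM. The ranges overlapped and the log2 fold of -0.66 ± 0.55 (SE) was little more than its error. Atf5 (0.354 to 0.368 CPM in WT, 0.321 to 0.420 in S303/7A) and Cebpb (0.122 to 0.301 and 0.116 to 0.350) were as scarce. Both encode bZIP factors, and ATF5 is translated under the same control as ATF4. Both overlap exons of genes on the other strand, Cebpb with Tmem189, at a mean of 25.5 CPM, over 312 bases.

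Nupr1, a small stress-induced chromatin protein, had 19, 1 and 33 counts in WT and 7, 0 and 0 in S303/7A. A count of 0 allows up to 0.0687 CPM in S303/7A 6 and 0.0635 in S303/7A 7, by library total without TMM factors and for counting error only. WT 2, with 1 count, lay among the S303/7A libraries. Without the low-count filter its adjusted p was 0.741.

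Ppp1r15a encodes GADD34, the phosphatase subunit that reverses eIF2 phosphorylation. It was at 31.3, 49.7 and 30.4 CPM in WT and at 41.1, 32.2 and 29.7 in S303/7A. WT 2 was the highest library, and without it the log2 fold of -0.11 ± 0.22 (SE) became 0.14. The same library had the highest sum of 11 immediate early and heat shock genes, 1006 CPM against 517 to 572 in the other 5, and 10 of the 11 had log2 folds below 0 between the genotypes (median -0.83). The part of cell handling was not tested. Eif2ak4, the kinase GCN2 that senses uncharged tRNA, lay at 19.98 to 22.02 CPM in WT and 20.6 to 23.6 in S303/7A.

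Among targets that restrain growth, Sesn2 was 1 of the 3 genes without overlap. SESN2 binds leucine and restrains mTORC1. Its transcript was at 43.0, 36.3 and 35.9 CPM in WT and at 49.5, 45.7 and 46.9 in S303/7A. The gap between the groups, from WT 1 to S303/7A 6, was small beside the spread within WT. The log2 fold was 0.30 ± 0.11 (SE), a fold of 1.24 with an interval from 1.04 to 1.47, and the adjusted p was 0.432 (0.372 to 0.793 over the alternatives, edgeR's quasi-likelihood test, DESeq2 and limma-voom).

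Ddit4 (REDD1), another mTORC1 inhibitor, gave nearly equal values in 5 libraries and a high one in S303/7A 7. It was at 14.2, 14.4 and 14.8 CPM in WT, at 14.2 and 11.4 in S303/7A 5 and 6, and at 31.3 in S303/7A 7. The highest library was thus 2.75 times the lowest, the widest range of the genes at 10 CPM or more. Its log2 fold of 0.39 ± 0.36 (SE) rested on that library and was -0.19 without it.

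Eif4ebp1, whose protein blocks cap-dependent translation until mTORC1 phosphorylates it, was at 16.5 to 20.6 CPM in WT, and all S303/7A libraries lay inside that range. Chac1, which degrades glutathione and is among the transcripts most strongly induced by ATF4, was erratic at low counts: 2, 71 and 68 in WT and 16, 0 and 45 in S303/7A. Each genotype held a library at or near 0 and one at about 1 CPM, so its log2 fold of -0.75 ± 1.41 (SE), which ran from -2.00 without S303/7A 7 to -0.10 without WT 2, is not informative. Vldlr, a lipoprotein receptor, had 15 to 46 counts in WT and 28 to 33 in S303/7A, and its log2 fold of 0.69 ± 0.57 (SE) was 1.37 without WT 1.

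**Figure D3:**
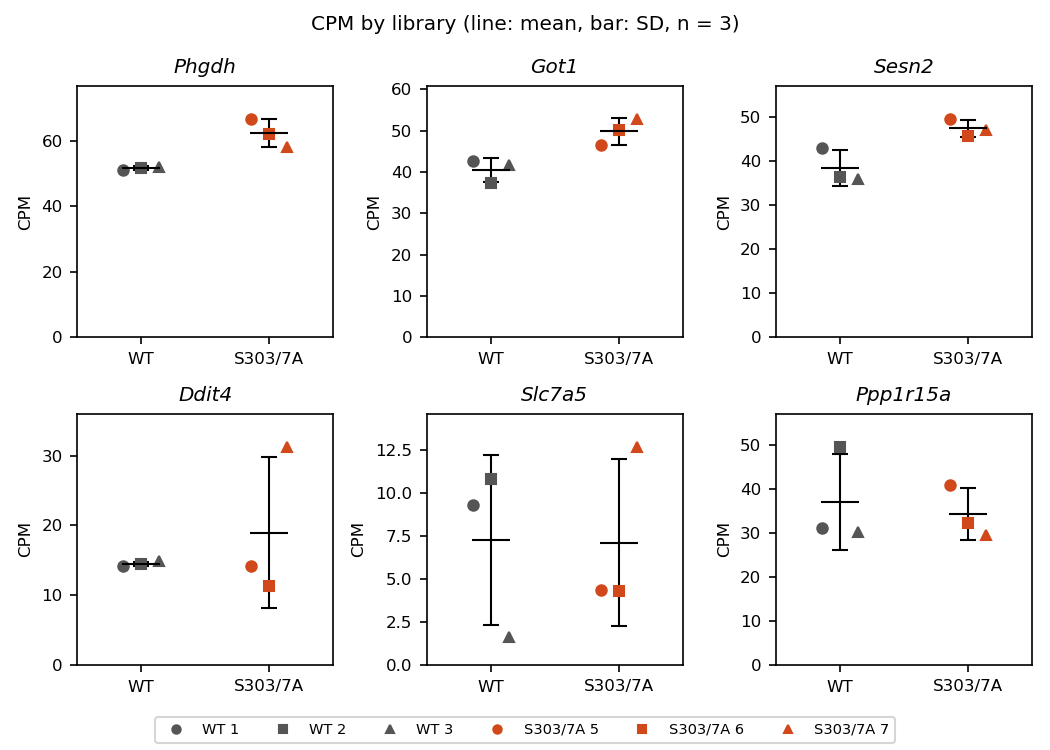
CPM in each library (line: mean, bar: SD, n = 3). Phgdh, Got1 and Sesn2 have groups that do not overlap, and Ddit4, Slc7a5 and Ppp1r15a spread widely within a genotype. S303/7A 7 is high for Ddit4 (31.3 CPM) and WT 2 is the highest for Ppp1r15a (49.7 CPM). For Slc7a5, WT 3 (1.59 CPM) and S303/7A 5 and 6 (4.36 and 4.27) are low. WT 1 and 2 and S303/7A 7 are at 9.29, 10.8 and 12.7 CPM.

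Serine synthesis from glucose runs through PHGDH, PSAT1 and PSPH. Phgdh (chromosome 3, 98313170 to 98339990) was at 51.0, 51.8 and 52.1 CPM in WT and at 66.7, 62.2 and 58.0 in S303/7A. The WT libraries were almost equal, and each S303/7A library was higher than all of them. The log2 fold was 0.27 ± 0.09 (SE), a fold of 1.21 with an interval from 1.05 to 1.39. Its adjusted p of 0.371 ranged from 0.334 to 0.719 over the alternatives in edgeR's quasi-likelihood test, DESeq2 and limma-voom. Phgdh has 9 copies of at least 95% identity, the most abundant of them Gm7901 at 1.07 CPM, so reads may have been lost to or gained from them.

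The next enzymes of the pathway did not share this separation. Psat1 was at 41.9, 34.4 and 40.6 CPM in WT and at 48.7, 48.6 and 38.3 in S303/7A, with S303/7A 7 inside the WT range. Psph was at 38.8 to 43.4 CPM in WT and 36.0 to 45.1 in S303/7A, with a log2 fold of -0.03 and an interval from -0.30 to 0.24. Psph overlaps exons of the abundant chaperonin gene Cct6a (mean 226 CPM) on the other strand.

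Got1, the cytosolic aspartate transaminase that makes aspartate available for asparagine and nucleotides, was at 42.6, 37.2 and 41.7 CPM in WT and at 46.4, 50.1 and 52.9 in S303/7A. Its groups did not overlap, and the log2 fold was 0.30 ± 0.10 (SE) with an interval from 0.06 to 0.54. The adjusted p was 0.413 and ranged from 0.346 to 0.790 over the alternatives (edgeR's quasi-likelihood test, DESeq2 and limma-voom). Left out 1 at a time, the libraries gave an unadjusted p under 0.05 in 5 of 6 fits for Phgdh, 4 for Got1 and 3 for Sesn2. Got1 was the only gene of these 3 that carried the ATF4 element in its window, as printed earlier.

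Asns, which makes asparagine from aspartate and is a classical ATF4 target, was scarce. It had 17, 73 and 71 counts in WT and 6, 26 and 0 in S303/7A, or 0.269, 1.34 and 0.966 CPM against 0.140, 0.603 and 0. The count of 0 in S303/7A 7 allows up to 0.0635 CPM by library total. WT 1 lay between the S303/7A libraries, the log2 fold was -1.79 ± 1.19 (SE) and its interval ran from -4.59 to 1.01. It was -3.60 without S303/7A 6 and -1.20 without S303/7A 7. These NK cells held Atf4 and Ddit3 transcripts at mean levels of 36.7 and 32.4 CPM per kb, while Asns, Chac1 and Trib3 were at 0.202, 0.366 and 0.279. That contrast does not hold for the whole set. Of all 34 genes, 8 were under 1 CPM per kb and 26 were at 1.93 to 62.5, Slc3a2 (44.3) and Gars (49.7) among them.

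One-carbon enzymes move the carbon that serine gives up onto folate. Shmt2, the mitochondrial serine hydroxymethyltransferase, was the steadiest of the 24 pathway genes at 10 CPM or more. It was at 102, 108 and 100.1 CPM in WT and at 98.6, 104 and 106 in S303/7A, a highest-to-lowest ratio of 1.09. Its fold was 0.997 with an interval from 0.888 to 1.12. The cytosolic Shmt1 was at 8.47 to 10.8 CPM in WT and 8.01 to 11.4 in S303/7A.

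Mthfd1 (55.2 to 69.6 CPM in WT, 59.8 to 69.3 in S303/7A) and Mthfd1l (55.8 to 61.7 and 49.9 to 62.7) overlapped almost fully. They encode the cytosolic folate enzyme of 3 activities and the mitochondrial formate-tetrahydrofolate ligase. Mthfd2, the mitochondrial enzyme that ATF4 and growth signals induce, was at 11.7, 10.9 and 10.98 CPM in WT and at 15.5, 15.1 and 11.7 in S303/7A. S303/7A 5 and 6 were higher than all WT libraries and S303/7A 7 was level with WT 1. The log2 fold was 0.33 ± 0.16 (SE; edgeR quasi-likelihood, adjusted p 0.589).

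Psat1, Mthfd2, Slc38a1 and, at very low counts, Atf5 had S303/7A 5 and 6 above all WT libraries and S303/7A 7 not above them, 4 genes singled out after their values were seen. The pattern was not particular to them. Sums of 12 cell cycle genes were 869 and 906 CPM in S303/7A 5 and 6, 639 in S303/7A 7 and 687 to 777 in WT. Of the 12, 1 had a log2 fold below 0 (median 0.29). The part of the cell cycle was not tested. S303/7A 5 was the highest library for 12 of the 32 tested genes, and every other library for 4. Across the 24 genes at 10 CPM or more, the median deviation from each gene's mean was 0.08, 0.03 and -0.01 in S303/7A 5, 6 and 7, and between -0.05 and -0.03 in the WT libraries, on the log2 scale. These differences within and between genotypes are smaller than the median spread of a gene over the libraries. The highest-to-lowest ratio over the 6 libraries had a median of 1.27 for the 24 genes and 1.32 for the 8566 genes at this level.

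**Figure D4:**
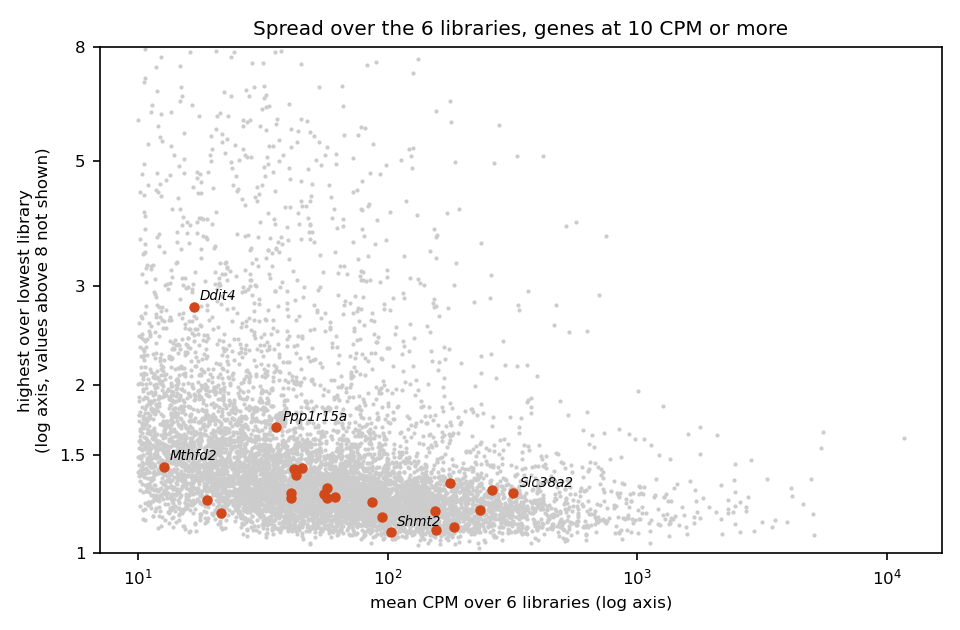
Highest over lowest library against mean level (CPM, both axes log) for genes at 10 CPM or more, with all genes in grey (ratios over 8 not drawn) and the 24 pathway genes in orange. The pathway genes run from 1.09 (Shmt2) to 2.75 (Ddit4).

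Amino acid transporters included Slc1a5, the most abundant gene of the set per kilobase. Slc38a2 (SNAT2) and Slc38a1 (SNAT1) carry small neutral amino acids such as glutamine into cells with sodium. Slc38a2 was at 285, 282 and 340 CPM in WT and at 361, 339 and 303 in S303/7A, and Slc38a1 at 170 to 178 and 149 to 199. For Slc38a1 the WT libraries were close together, with S303/7A 5 and 6 higher and S303/7A 7 the lowest of all. Slc1a5 (ASCT2), a neutral amino acid exchanger that also takes glutamine, was at 262, 281 and 278 CPM in WT and at 286, 220 and 238 in S303/7A. S303/7A 5 was thus above WT and the other S303/7A libraries below it, with a log2 fold of -0.14 ± 0.10 (SE).

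Slc3a2 encodes CD98 heavy chain, which brings the light chains SLC7A5 (LAT1) and SLC7A11 (xCT) to the cell surface. It was at 155, 153 and 161 CPM in WT and at 150.1, 165 and 152 in S303/7A, a fold of 0.995 with an interval from 0.890 to 1.11. Per kilobase these 2 light chains were far lower, 1.93 CPM per kb for Slc7a5 and 0.00925 for Slc7a11 against 44.3 for Slc3a2. Slc7a8, outside the set and also a partner of CD98, was at 48.5 to 59.5 CPM in WT and 25.2 to 46.2 in S303/7A. Slc7a5, the importer of leucine and other large neutral amino acids, was at 9.29, 10.8 and 1.59 CPM in WT and at 4.36, 4.27 and 12.7 in S303/7A.

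The spread of Slc7a5 lay within the genotypes, not between them: the highest and lowest libraries differed 7.96-fold, and the genotype means were 7.22 and 7.10 CPM. The log2 fold of -0.02 ± 0.71 (SE) ran from -0.74 to 0.38 when each library was left out. S303/7A 7, the library high in Ddit4, was also the highest in Slc7a5, but there it lay close to WT 2 (12.7 and 10.8 CPM). WT 3, the lowest in Slc7a5, had an ordinary Ddit4 level. Slc7a11, the cystine importer, had 8, 7 and 20 counts in WT and 4, 1 and 6 in S303/7A. Part of its annotation matches tubulin genes over 373 bases at more than 95% identity, so even these few counts are uncertain. The cationic transporter Slc7a1, for arginine and lysine, was at 37.1 to 47.5 CPM in WT and 37.6 to 41.4 in S303/7A.

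All 4 tRNA synthetases of the set were abundant and nearly equal in the genotypes. Nars, for asparagine, was at 220.3 to 230.5 CPM in WT and 222 to 263 in S303/7A. Sars, for serine, was at 173 to 193 CPM in WT and 185 to 191 in S303/7A, Gars, for glycine, at 138 to 164 and 149.8 to 158, and Aars, for alanine, at 89.3 to 103 and 90.1 to 97.9. Their log2 folds were between -0.01 and 0.09 with SE of at most 0.09, and all 4 intervals lay within 1.5-fold. Aars shares 1326 exon bases on the same strand with Exosc6, which had a mean of 0 CPM in the deposited table.

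Per kilobase of annotated exon, the order at the top was Slc1a5 (62.5 CPM per kb), Nars (53.8), Gars (49.7), Slc3a2 (44.3), Atf4 (36.7), Slc38a2 (36.0), Sars (36.0), Shmt2 (33.1) and Ddit3 (32.4). These 9 lay above 89.1% or more of the genes tested, and neighbours in this order, such as Slc38a2 and Sars, are not separated beyond the spread of their libraries. At the bottom were Slc7a11 (0.00925 CPM per kb), Vldlr (0.0540) and Nupr1 (0.0618). Exon lengths are unions over all annotated transcripts and understate genes with long rare forms, such as Slc38a1 and Slc7a11.

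**Figure D5:**
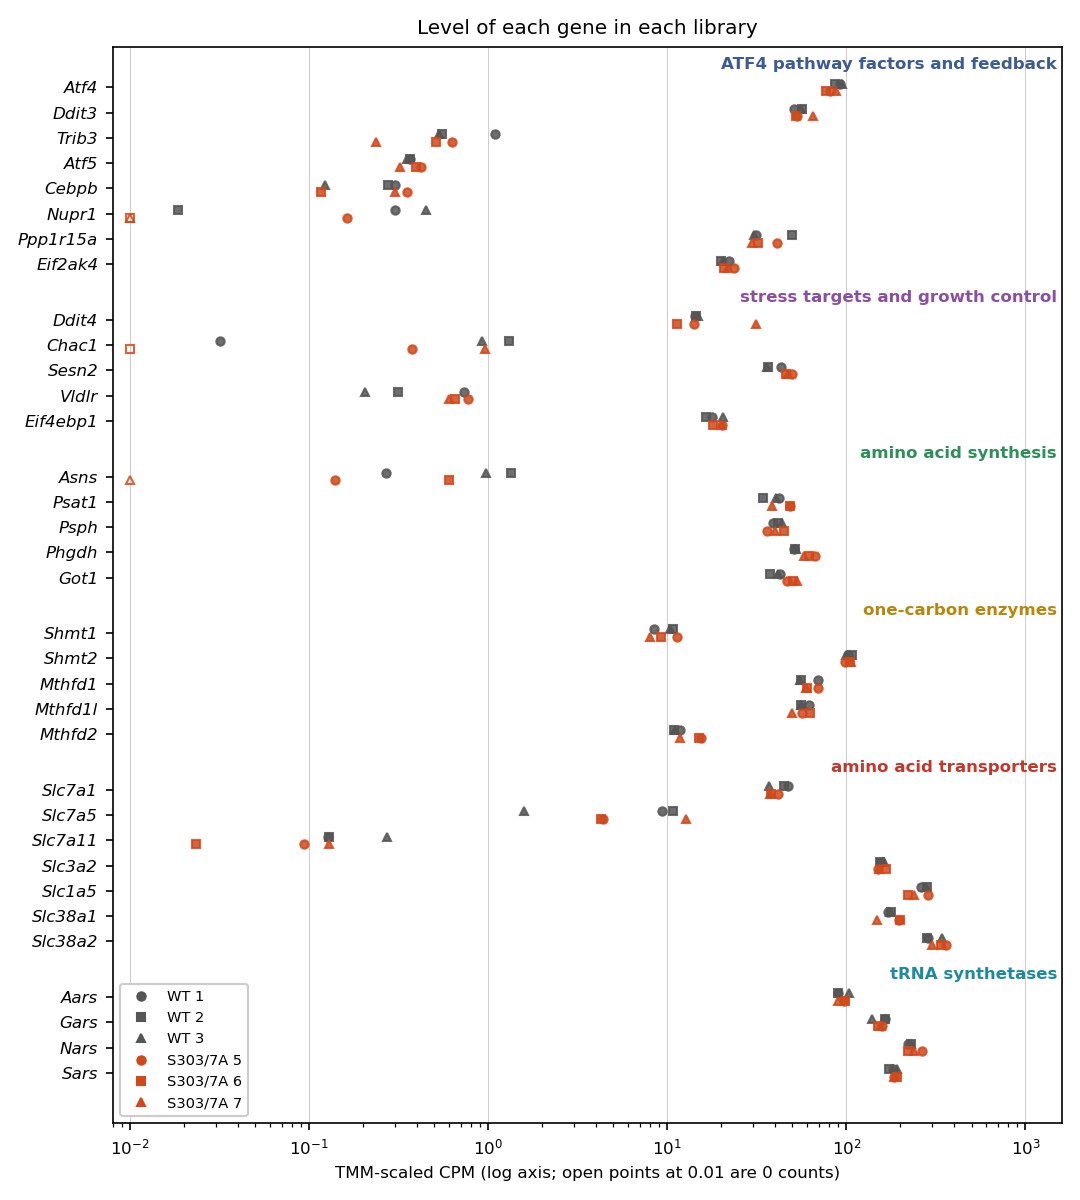
TMM-scaled CPM (log axis) of all 34 genes in each of the 6 libraries, by role. Most genes at 10 CPM or more form narrow columns in which the genotypes overlap, with Phgdh, Got1 and Sesn2 separated and Ddit4 and Ppp1r15a wider, and 8 genes lie under 2 CPM, most with wide scatter.

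Beyond the 34, 5 further lists of the pathway held 114 tested genes, 18 of which had an unadjusted p under 0.05 (15.8%, against 9.68% of all genes). One passed the test, Ggh, the lysosomal enzyme that trims polyglutamate tails from folates. It was at 21.3, 25.4 and 21.5 CPM in WT and at 43.6, 38.3 and 43.9 in S303/7A, with no overlap. The log2 fold was 0.88 ± 0.12 (SE) (edgeR quasi-likelihood, adjusted p 0.0470). The call was lost in each of the 6 fits that left out 1 library (adjusted p 0.0734 to 0.204, log2 fold 0.83 to 0.96) and with library totals (0.0517), while DESeq2 gave 3.43e-07.

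Of the 17 tested genes of the list of eIF2, its kinases and its regulators, 0 passed and 2 had an unadjusted p under 0.05. Nck1, an adaptor reported to hold down eIF2 phosphorylation, was at 91.1, 142 and 102 CPM in WT and at 182, 182 and 169 in S303/7A, a log2 fold of 0.67 ± 0.16 (SE; edgeR quasi-likelihood, adjusted p 0.215). It passed in DESeq2 (0.00494) and without the low-count filter (0.0461). Eif2ak3, the kinase PERK that senses unfolded protein in the endoplasmic reticulum, was at 3.14, 4.21 and 3.31 CPM in WT, at 4.78 and 4.69 in S303/7A 5 and 6 and at 14.99 in S303/7A 7. Its log2 fold of 1.20 ± 0.48 (SE) (edgeR quasi-likelihood, adjusted p 0.486) was 0.41 without S303/7A 7, the library that was also high in Ddit4. The next gene by unadjusted p was Dnajc3, the inhibitor p58IPK of eIF2 kinases, with a log2 fold of 0.18 ± 0.09 (SE).

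In the other lists 0 of 27 further factors and targets of ATF4 passed (3 at an unadjusted p under 0.05), 0 of 19 other tRNA synthetases and their partners (2), 0 of 23 other amino acid transporters (3), and Ggh alone of 33 other enzymes of folate and amino acid metabolism (8). DESeq2 called 5 of the 114 (4.39%, against 2.15% of all genes with an adjusted p in DESeq2), Ggh and Nck1 among them. Among synthetases, Farsa, the catalytic chain for phenylalanine, was at 191, 176 and 191 CPM in WT and at 155, 140 and 147 in S303/7A, without overlap (log2 fold -0.34 ± 0.07, SE). Vars and Lars had log2 folds of -0.49 and -0.22. None of the 3 was called (Farsa, edgeR quasi-likelihood, adjusted p 0.167).

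Of the transporters, Slc7a8 (LAT2), which carries neutral amino acids with CD98, was at 48.5, 59.5 and 53.3 CPM in WT, at 25.2 and 26.8 in S303/7A 5 and 6 and at 46.2 in S303/7A 7. The log2 fold was -0.72 ± 0.24 (SE; edgeR quasi-likelihood, adjusted p 0.390), and -1.05 without S303/7A 7 (adjusted p 0.0636). The mitochondrial aspartate-glutamate carriers Slc25a12 and Slc25a13 had log2 folds of 0.27 ± 0.07 and 0.48 ± 0.19 (SE), both without overlap between the groups. Of the further ATF4 targets, Map1lc3b, Vegfa and Ndrg1 had log2 folds of 0.16, -1.10 and -0.32, none called.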

How the data were processed

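Reads were trimmed, aligned and counted by the authors, whose processing notes list Trimmomatic, STAR, featureCounts, DESeq2 and the build GRCm38 (mm10); tool versions, annotation release and counting strand were not given in the sources used here. What the authors deposited are raw counts per gene symbol and a normalized signal. The deposited signal is the count divided by 1 size factor per library: multiplying back gave the whole count, within 0.01, for 100% of values, so the count test on recovered reads is the same test and only raw counts were tested.

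The raw counts went into edgeR 4.0.16 under R 4.3.3: filterByExpr (minimum count 10, minimum total 15), TMM factors and the quasi-likelihood test over all 6 libraries, with Benjamini-Hochberg adjustment over the 16480 genes tested and a threshold of 0.05. SE and 95% intervals are Wald-type, from the same fit. Alternatives used DESeq2 1.42.0, limma 3.58.1, other scalings and filters, equal depth by thinning, and 1 library left out. In simulated counts for this comparison (16480 genes), the test recovered 7 of 50 genes changed 1.5-fold, 25 of 50 changed 2-fold, 41 of 50 changed 4-fold and 48 of 50 changed 8-fold, and made 5 false calls. The changed genes were drawn from those with a mean above 1 CPM, and dispersions were taken from the trend over level. The rates therefore do not cover scarcer genes such as Trib3, Atf5, Cebpb, Chac1, Vldlr and Asns.

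Floors are 3 counts over the total counts of the library, without the TMM factors used for the other CPM. They cover counting error only, as reads carry no molecular identifiers. The members, lists and tests were chosen with earlier results of these data known. The naming rule took all 34 members, and of each further pathway list the genes that passed or, if none did, the 3 of smallest unadjusted p. A promoter stretch and a gene that only DESeq2 called are not reported here. Positions and exon lengths are from GENCODE release M21, promoters from RefSeq (GRCm38.p6); 5 members had no promoter window. Near copies were transcripts sharing at least 95% identity over 200 bases.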

Additional observations from a re-analysis of the deposited data

How the results depend on the processing

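No member was called under any of the 14 alternatives, and the lowest adjusted p of a member in them was 0.334. The median log2 fold of the tested members stayed within the replicate SD of 0.03, between 0.01 and 0.05. Over all genes, 60 calls became 171 without the low-count filter, 434 in DESeq2, 38 in limma-voom and between 5 and 57 when 1 library was left out (5 without WT 2). Without S303/7A 6, 38 were higher and 19 lower, against 22 and 38 with all libraries. The 1 pathway gene called became 0 with library totals, 2 without the filter, 5 in DESeq2 and 0 in each of the 6 fits without 1 library. The promoter element was found in 2 members, not 9, when the longer core TGATGCAAT was required, as its construction implies. These were Nupr1 (0.0618 CPM per kb) and Aars (10.2), too few to compare levels with and without the element. Uncalled log2 folds changed sign for 15 members in 35 of 442 values, Ddit4 (0.39 with all libraries) among them. Slc7a5 became 0.31 in limma-voom, and Aars -0.021 with library totals and -0.010 after thinning. With 1 library left out, log2 folds ran from -0.056 to 0.11 (Ddit3), -0.017 to 0.17 (Atf5), -0.18 to 0.48 (Cebpb), -0.26 to 0.14 (Ppp1r15a), -0.19 to 0.65 (Ddit4), -0.12 to 0.046 (Psph), -0.20 to 0.057 (Shmt1), -0.028 to 0.024 (Shmt2), -0.12 to 0.042 (Mthfd1l), -0.74 to 0.38 (Slc7a5), -0.053 to 0.019 (Slc3a2), -0.015 to 0.18 (Slc38a1), -0.034 to 0.080 (Aars), -0.089 to 0.029 (Gars) and -0.018 to 0.070 (Sars). The cause was not tested. Changes of 1.5-fold were seldom recovered in simulation, so small shifts may have been missed. No paired analysis was possible because the genotypes share no replicate numbers.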
